A study of Mus musculus with 6 samples.

Results

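Histone-modifying enzymes and chromatin remodellers set how tightly DNA is packed and which genes can be read. The genes described here are those whose symbol begins with one of the family names of lysine demethylases (Kdm), lysine methyltransferases (Kmt, Mll, Setd), deacetylases (Hdac), acetyltransferases (Kat), SWI/SNF and ISWI subunits (Smarc), chromodomain helicases (Chd), DNA methylation enzymes (Dnmt, Tet), bromodomain and chromobox readers (Brd, Cbx), Polycomb repressive complex 2 (Ezh, Eed, Suz12, Jarid2) and AT-rich interaction domain genes (Arid). The sex-linked Kdm5c, Kdm5d and Kdm6a and the joined entry of Cbx6 were left out. This rule took 85 of the 8078 genes listed. No measured value enters the rule, but it was chosen with earlier results of these data known. It works by spelling: Mllt4 encodes afadin, a protein of cell junctions, and Setd3 methylates actin. Families follow names as well, so a family count is not a count of the subunits of a complex. Smarcal1 was counted with the SWI/SNF and ISWI genes, Chd1l with the chromodomain helicases and Setd3 with the lysine methyltransferases. Arid1b and Arid2 were also counted with the SWI/SNF and ISWI genes. All 85 members passed the filter on low values, a mean of at least 1 FPKM (fragments scaled by transcript length and library size), as did 7987 of the 8078 genes.

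Horizontal basal cells line the floor of the olfactory epithelium and are held in reserve as stem cells. RNA came from B6;KRT5-CreER;Ai9 fl(Stop)TdTomato mice aged 12 weeks, in which tamoxifen, given 2 weeks before the sort, let a Cre recombinase under the keratin 5 promoter switch on the red protein TdTomato. Both groups carried these alleles and received tamoxifen, and sorting was on TdTomato, so a library holds whatever cells bear that label. The 3 uninjured libraries came from undisturbed epithelium, and the 3 injured ones from mice that had breathed methyl bromide (MeBr), a gas that destroys much of this tissue, at 180 ppm for 8 h and were harvested 18 h later. Each library pooled cells of several animals, so p-values measure the spread between pools.

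The libraries differed in more than injury. Of the markers of horizontal basal cells, 7 of 11 were listed singly, and the most abundant, Trp63, the transcription factor that keeps these cells at rest, was at 157 to 194 FPKM in uninjured and 99.5 to 140 FPKM in injured libraries. The 7 did not go one way: their median change was -0.02, with 3 positive, the integrins Itga6 (0.79) and Itgb4 (0.34) and the adhesion molecule Icam1 (0.32), and 4 negative. Without injured replicate 2 this median was 0.41. The 7 summed to 368 to 408 FPKM without injury, and to 324, 217 and 406 FPKM in injured replicates 1 to 3. Among the injured libraries replicate 2 was lowest for 6 of them. Markers of globose basal cells and neuronal precursors, 8 of 9 listed and none at the table's lowest value, summed to 41.1 to 66.9 FPKM without injury, and to 44.8, 445 and 33.2 FPKM in injured replicates 1 to 3, so injured replicate 2 stood apart. Stmn2, a microtubule regulator of young neurons, was at 135 FPKM there and at 6.04 to 18.7 FPKM elsewhere. Xist, which coats and silences 1 X chromosome in female cells, stood at 27.0 to 33.8 FPKM in uninjured and 0.0645 to 0.561 FPKM in injured libraries, so injury and the sex of the pools cannot be told apart. RefSeq's GRCm38.p6 annotation places 0 of the 85 members on the X or Y chromosome. In RNA pooled over cells, fewer cells of a type and less RNA per cell cannot be told apart. Results that rest on injured replicate 2 are given with and without it.

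As background, chromatin modifiers are often described as writers, erasers and readers of marks. Polycomb repressive complex 2, built on Suz12 and Eed around the catalytic subunit Ezh2 or Ezh1, trimethylates histone H3 at lysine 27 and keeps developmental genes silent. SWI/SNF complexes slide or evict nucleosomes with the ATPase Smarca4 (Brg1) or Smarca2 (Brm). In many tissues Ezh2 and Dnmt1 are abundant in dividing cells and Ezh1 and Smarca2 in resting ones.

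The levels of Ezh2, Eed, Suz12, Smarca2 and Smarca4 stood apart between the groups in the values as deposited, as did those of other members. For Ezh2, Eed and Suz12 the groups overlapped once libraries were rescaled in the ways given below. The promoters of the genes named here, picked after their values were seen, are shown first. Each is the 250 bases upstream of the RefSeq start site in GRCm38.p6, 5′ to 3′, with CG dinucleotides, the sites that DNA methyltransferases act on, in capitals. The files' own build, mm9, was not used for positions.
Ezh2 (chr6:47595031-47595280, minus strand): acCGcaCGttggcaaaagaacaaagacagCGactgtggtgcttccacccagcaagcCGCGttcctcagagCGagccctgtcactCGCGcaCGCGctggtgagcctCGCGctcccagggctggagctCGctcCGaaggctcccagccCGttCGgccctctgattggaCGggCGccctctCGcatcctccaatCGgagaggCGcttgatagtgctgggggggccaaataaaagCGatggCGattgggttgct
Eed (chr7:89980977-89981226, minus strand): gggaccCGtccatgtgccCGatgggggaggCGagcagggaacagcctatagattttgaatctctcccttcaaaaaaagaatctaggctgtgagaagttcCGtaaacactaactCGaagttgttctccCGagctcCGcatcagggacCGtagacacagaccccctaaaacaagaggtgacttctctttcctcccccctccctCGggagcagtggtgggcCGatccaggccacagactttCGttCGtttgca
Suz12 (chr11:79992856-79993105, plus strand): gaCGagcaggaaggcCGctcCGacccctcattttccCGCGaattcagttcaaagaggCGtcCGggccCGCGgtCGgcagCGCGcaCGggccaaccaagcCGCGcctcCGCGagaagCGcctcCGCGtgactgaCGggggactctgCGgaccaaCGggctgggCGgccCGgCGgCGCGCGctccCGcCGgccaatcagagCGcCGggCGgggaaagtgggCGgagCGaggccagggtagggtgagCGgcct
Smarca2 (chr19:26604910-26605159, plus strand): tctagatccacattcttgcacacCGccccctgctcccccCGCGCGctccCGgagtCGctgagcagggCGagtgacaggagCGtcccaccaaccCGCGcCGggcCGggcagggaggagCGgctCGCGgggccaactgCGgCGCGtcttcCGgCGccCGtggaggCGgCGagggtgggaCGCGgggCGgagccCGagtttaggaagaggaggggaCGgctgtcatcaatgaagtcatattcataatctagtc
Smarca4 (chr9:21615919-21616168, plus strand): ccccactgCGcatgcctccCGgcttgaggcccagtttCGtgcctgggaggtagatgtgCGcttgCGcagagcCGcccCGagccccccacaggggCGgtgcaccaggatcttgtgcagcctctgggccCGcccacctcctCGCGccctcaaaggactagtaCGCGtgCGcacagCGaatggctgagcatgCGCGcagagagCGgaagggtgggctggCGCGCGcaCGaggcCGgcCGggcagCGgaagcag
The CG dinucleotide occurs 23 times upstream of Ezh2, 12 times upstream of Eed, 37 times upstream of Suz12, 28 times upstream of Smarca2 and 25 times upstream of Smarca4. RefSeq promoters were matched for 69 of the 85 members. Their median was 20 per window, against 17 for the 6239 genes tested that had one. The letters TTTGGCGC and TTTCCCGC, 2 forms of the site of E2F factors, which drive entry into S phase, were searched on both strands with overlapping matches counted. At least 1 form lay upstream of 3 of 69 members (4.35%), Suz12, Cbx3 and Brd7, and of 2.90% of genes tested and 1.51% of all 27025 genes with a promoter. In Suz12 it starts at base 32 of the window. A match is a run of letters and not a measured site.

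Mean levels over the 6 libraries ran from 1.55 to 81.7 FPKM, with a median of 10.4 FPKM against 8.82 FPKM for all genes tested, and 44 members were at 10 FPKM or more. Smarca2 led, at percentile 96.5 of the listed genes, followed by the deacetylase Hdac2 at percentile 94.1 and Mll5, a trithorax-related SET domain gene, at percentile 91.5. The lowest families by median were the DNA methylation and oxidation enzymes, at 6.11 FPKM, and the Arid3 to Arid5 genes, at 7.20 FPKM. The plot of levels by family shows the spread within each.

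**Figure D1:**
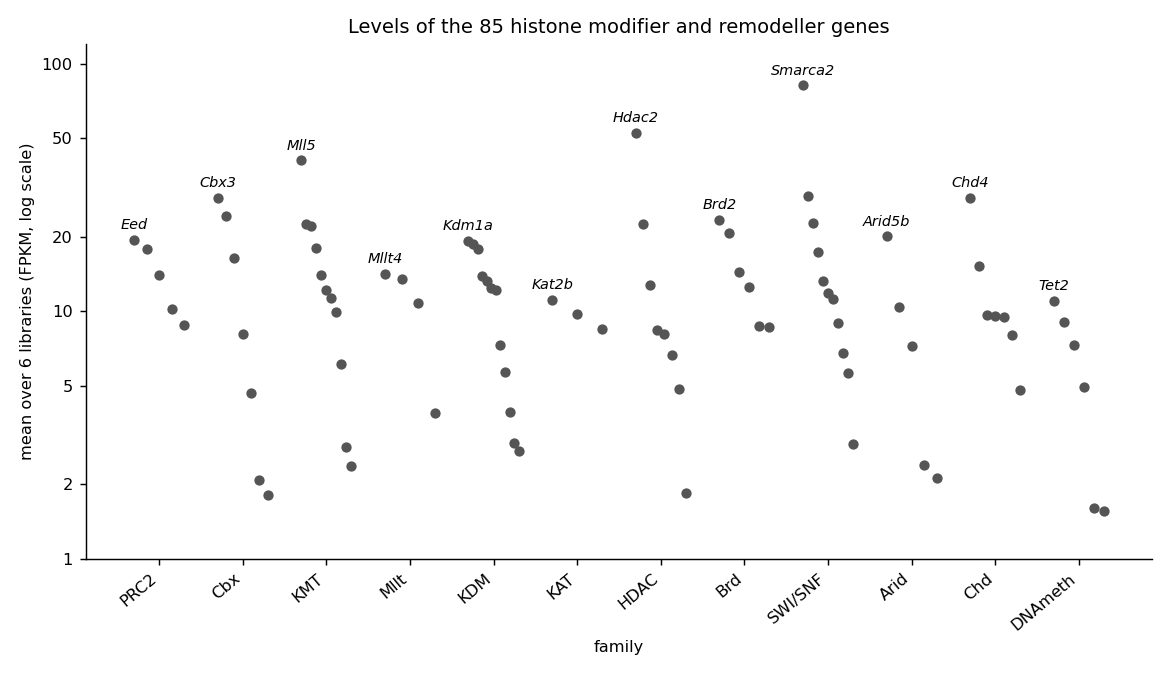
Mean FPKM over the 6 libraries (log scale) for each of the 85 members, 1 point per gene, by family on the horizontal axis. The most abundant gene of each family is named; Smarca2 and Hdac2 lie highest. Every family holds genes at several levels.

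The comparison of injured with uninjured libraries asks which of these genes differ 18 h after the lesion. A change is the injured mean minus the uninjured mean of log2(FPKM + 1), a scale on which low genes show less than their true change. With limma on 7987 genes, 0 of 85 members passed a Benjamini-Hochberg adjusted p of 0.05, where 0.0125% of all genes did, a single gene, Xist. At an unadjusted p of 0.05 there were 8 members higher, where 7.15% of all genes were, and 0 lower, where 4.04% were. That is 9.41% of the members against 11.2% of all genes. Without its trend and robust steps limma also called 0 members. Fitted without injured replicate 1, it called 0 members and 0.0626% of all genes (0.0501% lower). The member median was 0.10 and that of all genes 0.16, with 54 members positive and 31 negative. That is 63.5% positive against 62.9% of all genes, and the counts of positive genes given by family and list below stand against that share. Upper-quartile scaling moved these medians to -0.06 and -0.01, so members are to be read against that shift.

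Injured libraries lay above every uninjured one for 11 members (12.9%), where 12.0% of all genes did, and below for 1 member (1.18%), where 6.75% did. The share above was therefore near the background. The 11 were Setd8, Dnmt1, Eed, Ezh2, Hdac2, Smarcb1, Chd7, Smarca4, Suz12, Mllt4 and Setdb1, and the 1 below was Smarca2. With upper-quartile scaling 6 lay above and 4 below, against 7.19% and 11.4% of all genes. Quantile normalization also gave 6 above and 4 below, against 7.60% and 10.8% of all genes. The 6 were Setd8, Dnmt1, Hdac2, Smarcb1, Chd7 and Smarca4 under both, and also when the dominant entry Mir703 was left out and libraries were rescaled. With Mir703 left out 6 lay above and 3 below, against 8.70% and 10.3% of all genes. Smarca2 stayed below under each of these scalings, and Setd7 also lay below under each. Kdm2a did so with upper-quartile scaling and quantile normalization, and Chd9 with quantile normalization. Cbx7 did so with upper-quartile scaling and with Mir703 left out. Eed, Ezh2, Suz12, Mllt4 and Setdb1 overlapped under each of these scalings, with positive changes throughout. Without injured replicate 2, 18 members lay above (29.4% of all genes) and 15 below (14.5%). Without injured replicate 1, 22 lay above (17.1%) and 2 below (10.3%). Without injured replicate 3, 13 lay above (16.3%) and 3 below (11.6%).

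**Figure D2:**
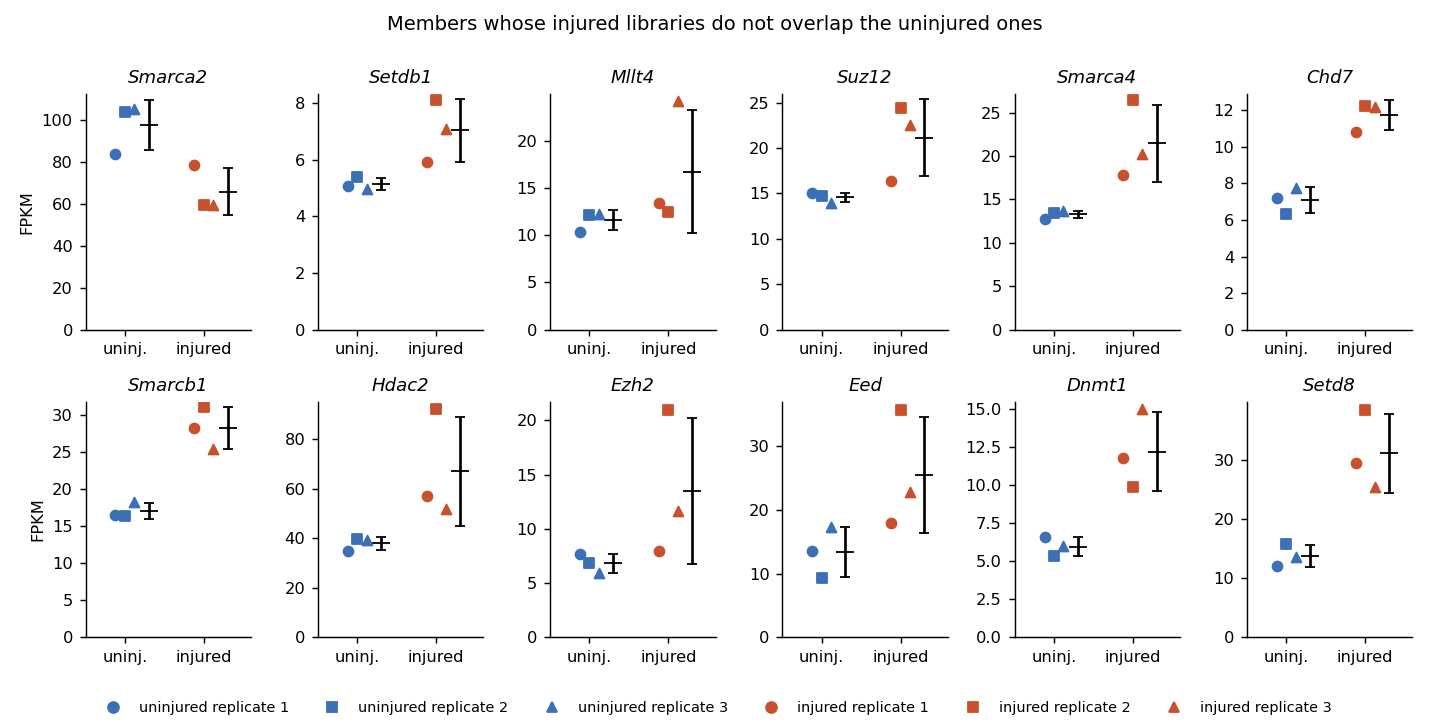
FPKM in each library (vertical axes, from 0, each on its own scale) for the 12 members whose injured libraries do not overlap the uninjured ones. Marker shape gives the replicate, and black bars are group means ± SD, n = 3. Smarca2 is lower and the other genes are higher after injury.

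Among writers, the methyltransferase Setd8, which places a single methyl group on lysine 20 of histone H4 and is needed for S phase and chromosome compaction, had the largest difference of these 11. It was at 12.1, 15.7 and 13.5 FPKM in uninjured replicates 1 to 3 and at 29.5, 38.4 and 25.3 FPKM in injured replicates 1 to 3. Every injured library held more than the highest uninjured one, and injured replicate 2 the most. The means were 13.8 ± 1.82 and 31.1 ± 6.71 FPKM (SD, n = 3 each), a log2 change of 1.11 with an SE of 0.26 (limma adjusted p = 0.183, 0.0599 to 0.682 over the alternatives). Dnmt1, which copies DNA methylation onto new strands, was at 6.57, 5.31 and 5.97 FPKM without injury and at 11.7, 9.85 and 15.0 FPKM with it. Here injured replicate 3 was highest and replicate 2 lowest of the injured libraries, all above the uninjured range. The log2 change was 0.91 with an SE of 0.26 (limma adjusted p = 0.288, 0.0548 to 0.781 over the alternatives). The H3 lysine 9 methyltransferase Setdb1 was at 5.06, 5.39 and 4.97 FPKM and at 5.90, 8.11 and 7.09 FPKM, a log2 change of 0.38 with an SE of 0.27 (limma adjusted p = 0.598).

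Of the 11 lysine methyltransferase genes 7 were positive, with a median of 0.28. The most abundant was Mll5, at 30.2, 51.6 and 43.2 FPKM in uninjured and 25.2, 59.7 and 33.9 FPKM in injured libraries, with wide overlap. Of the 6 DNA methylation and oxidation genes 4 were positive, with a median of 0.10, and -0.20 without injured replicate 2. Tet2, which oxidizes methylcytosine, was at 12.8, 11.4 and 7.55 FPKM and at 9.44, 13.3 and 11.6 FPKM, with overlapping groups.

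DNA replication genes also stood higher. Of 20 on that list 16 were listed, 15 of them positive. Injured libraries lay above every uninjured one for 10 (62.5%, against 12.0% of all genes), with 9 higher at an unadjusted p of 0.05 (56.3%, against 7.15%) and 0 past the adjusted threshold (limma). Without injured replicate 2 limma called 6 of them, all higher, where it called 3.43% of all genes higher and 1.14% lower. Their median change was then 1.31 in place of 1.00, and that of all genes 0.17 in place of 0.16. Rfc4 was at the lowest value in 4 libraries. The 16 genes summed to 56.1 to 76.5 FPKM without injury, and to 196, 94.9 and 192 FPKM in injured replicates 1 to 3. Dnmt1, like this sum, was lowest of the injured libraries in replicate 2, while Setd8 was highest there. The part of replication in the levels of both was not tested.

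Of the 5 Polycomb repressive complex 2 genes that the rule took, 3 stood higher in every injured library, those whose promoters are printed above. Ezh1 and Jarid2 overlapped between groups. Eed, which binds trimethylated lysine 27 and stimulates the enzyme, was at 13.5, 9.36 and 17.3 FPKM in uninjured and 18.0, 35.6 and 22.8 FPKM in injured libraries. The lowest injured library was only just above the highest uninjured one. Suz12, the scaffold, was at 15.0, 14.7 and 14.0 FPKM and at 16.4, 24.5 and 22.6 FPKM. Ezh2, the catalytic subunit, was at 7.72, 6.84 and 5.94 FPKM and at 7.94, 21.0 and 11.6 FPKM, so that injured replicate 1 was barely above the uninjured range. The log2 changes were 0.86 for Eed (SE 0.33), 0.49 for Suz12 (SE 0.25) and 0.80 for Ezh2 (SE 0.34), with limma adjusted p of 0.381, 0.495 and 0.420. The ranges over the alternatives were 0.215 to 0.834, 0.317 to 0.834 and 0.246 to 0.816. Without injured replicate 2 the changes were 0.60, 0.38 and 0.45. With upper-quartile scaling, quantile normalization or Mir703 left out, the groups overlapped for all 3 genes.

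Ezh1, the other catalytic subunit, was at 8.75, 10.4 and 10.1 FPKM without injury and at 6.01, 10.8 and 6.79 FPKM with it. Jarid2, which helps bring the complex to chromatin, was at 22.3, 6.19 and 10.1 FPKM and at 4.64, 32.6 and 7.81 FPKM, the widest scatter of the 5. All 5 genes that the rule took were highest, among injured libraries, in replicate 2 and lowest in replicate 1. Precursor markers were also highest in injured replicate 2, as were mitosis genes (9 of 15 listed), which summed to 63.3 FPKM there, 27.9 and 23.3 FPKM in injured replicates 1 and 3, and 18.8 to 20.3 FPKM in uninjured libraries. Their part in these levels was not tested. The rule left out Rbbp7, Rbbp4, Aebp2 and Mtf2, other genes of this complex, which were counted with a list below. In injured replicates 1 to 3 Rbbp7 was at 76.8, 56.7 and 98.6 FPKM and Rbbp4 at 12.5, 9.98 and 10.9 FPKM. Both were lowest in replicate 2. Aebp2 was highest in replicate 3, and Mtf2, like the 5, in replicate 2.

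Among remodellers the pair of SWI/SNF ATPases stood in opposite directions. Smarca2 was at 83.6, 104 and 105 FPKM in uninjured and 78.7, 59.4 and 59.4 FPKM in injured libraries. All 3 injured libraries were below the uninjured ones, replicate 1 by the least. Markers of sustentacular cells (8 of 12 listed, none at the table's lowest value), the supporting cells of this epithelium, were all 8 negative and summed to 692, 1396 and 1342 FPKM without injury and to 630, 298 and 283 FPKM with it. All 9 mature neuron markers were negative too. The part of such cells in the level of Smarca2 was not tested. Smarca4 was at 12.8, 13.4 and 13.6 FPKM and at 17.8, 26.4 and 20.2 FPKM, above every uninjured library. The log2 changes were -0.56 for Smarca2 (SE 0.29) and 0.64 for Smarca4 (SE 0.25), with limma adjusted p of 0.492 and 0.397. The ranges over the alternatives were 0.249 to 0.834 and 0.193 to 0.816. Smarcb1, a core subunit shared by these complexes, was at 16.5, 16.4 and 18.3 FPKM and at 28.2, 31.0 and 25.4 FPKM. Its log2 change of 0.69 had an SE of 0.24 (limma adjusted p = 0.365, 0.123 to 0.816 over the alternatives).

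The second most abundant gene of this family, the core subunit Smarcc2, was at 53.8, 24.7 and 20.8 FPKM in uninjured and 19.6, 35.5 and 20.3 FPKM in injured libraries. Uninjured replicate 1 was 1.5 times or more above every other library for this gene alone among the 85. Over the 11 SWI/SNF and ISWI genes 7 were positive, with a median of 0.16 that became 0.03 without injured replicate 2. Their summed level was 215 ± 9.43 FPKM without injury and 207 ± 35.2 FPKM with it.

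Among chromodomain helicases, Chd7, a remodeller of neural crest and sensory tissue whose loss causes CHARGE syndrome, was at 7.20, 6.34 and 7.76 FPKM and at 10.8, 12.2 and 12.2 FPKM. The injured libraries were close to each other, and the log2 change was 0.65 with an SE of 0.24 (limma adjusted p = 0.376, 0.139 to 0.828 over the alternatives). Without injured replicate 2 it was 0.63. Chd4, the ATPase of the NuRD corepressor, was the most abundant, at 20.8, 32.9 and 21.7 FPKM and at 25.2, 33.0 and 38.8 FPKM. Chd1, which binds trimethylated H3 lysine 4, was at 16.1, 20.2 and 9.72 FPKM and at 8.69, 10.4 and 25.9 FPKM. Both overlapped between groups. The median of the 7 was -0.13, and 0.04 without injured replicate 2.

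Among erasers, Hdac2 was at 34.8, 39.6 and 39.1 FPKM in uninjured and 57.0, 92.1 and 51.5 FPKM in injured libraries, all above the uninjured range and replicate 2 by far the highest. Its log2 change was 0.76 with an SE of 0.30 (limma adjusted p = 0.393, 0.195 to 0.816 over the alternatives), and 0.51 without injured replicate 2. Hdac1, its partner in the same corepressors, was at 36.2, 25.0 and 18.6 FPKM and at 22.5, 23.6 and 9.44 FPKM. These groups overlapped, with the lowest value in injured replicate 3. Hdac1 has processed pseudogene copies, and the counting of reads that match several places was not given in the sources used here. Of the 8 deacetylases 4 were positive and 4 negative, with a median of 0.02.

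With all libraries and the values as deposited, the 12 demethylases did not separate between groups in any member. Kdm2a lay below every uninjured library with upper-quartile scaling and quantile normalization. Of the 12, 8 were positive and 4 negative, with a median of 0.17, or -0.08 without injured replicate 2. The 2 most abundant were Kdm1a, which removes methyl groups from H3 lysine 4, at 14.4, 16.4 and 21.0 FPKM and 16.3, 28.3 and 19.0 FPKM, and the H3 lysine 9 demethylase Kdm3a. Kdm3a was at 13.8, 28.9 and 23.8 FPKM without injury and 12.8, 17.6 and 15.4 FPKM with it. The 3 acetyltransferases had a median of -0.02. Of these Kat2b was at 13.6, 12.0 and 9.51 FPKM and 7.54, 11.4 and 12.4 FPKM, and Kat5, the enzyme of the TIP60 complex, at 7.86, 10.9 and 10.6 FPKM and 9.35, 8.33 and 11.3 FPKM.

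Readers and the remaining families likewise overlapped in the values as deposited, except for Mllt4. Cbx7, at the table's lowest value in injured replicate 3, lay below with upper-quartile scaling and with Mir703 left out. Of the bromodomain genes, Brd2 was at 27.2, 22.5 and 20.8 FPKM without injury and 23.0, 19.8 and 26.2 FPKM with it. The family median was 0.11 over 6 genes. Of the chromobox genes, the heterochromatin proteins Cbx3 and Cbx1 were the most abundant. Cbx3 was at 30.4, 25.9 and 23.2 FPKM and 30.3, 29.7 and 33.0 FPKM, and Cbx1 at 15.7, 26.8 and 23.2 FPKM and 29.1, 28.2 and 22.7 FPKM. Cbx3 too has pseudogene copies. The 7 chromobox genes had a median of 0.23, which was -0.30 without injured replicate 2.

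Of the Arid3 to Arid5 genes, 5 in number with a median of 0.06, Arid5b was at 14.5, 29.1 and 15.3 FPKM and 15.0, 16.9 and 29.4 FPKM, and Arid4b, a subunit of the Sin3 corepressor, at 11.3, 9.30 and 10.1 FPKM and 7.21, 15.8 and 8.69 FPKM. All 4 genes named as MLL fusion partners were positive, with a median of 0.19. Mllt4, the junction gene, was at 10.3, 12.1 and 12.3 FPKM and 13.5, 12.5 and 24.2 FPKM, separated by a narrow gap (log2 change 0.44, SE 0.30, limma adjusted p = 0.585). Without injured replicate 3 its change was 0.15. Mllt10, a cofactor of the H3 lysine 79 methyltransferase, was at 15.6, 11.5 and 10.9 FPKM and 10.7, 16.8 and 15.6 FPKM.

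Ratios of paralogues within a library do not depend on how libraries were scaled. Of 43 pairs listed for this purpose, 24 had both genes tested and away from the table's lowest value. The groups did not overlap for 6 of them (25.0%), where 18.8% of all pairs of genes tested did not. The pairs share genes, and with 3 libraries against 3 an exact two-sided permutation test cannot go below p = 0.10, which is the value of each of these 6. Without injured replicate 2, 12 pairs did not overlap, against 43.2% of all pairs of genes.

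Smarca2 exceeded Smarca4 by 6.54, 7.73 and 7.72 times in uninjured libraries and by 4.42, 2.25 and 2.94 times in injured ones. All injured ratios were lower, and the log2 ratio was 2.87 ± 0.14 without injury and 1.62 ± 0.49 with it (SD, n = 3 each). The Ezh1 to Ezh2 ratio was 1.13, 1.51 and 1.70 without injury and 0.757, 0.513 and 0.584 with it. Ezh1 was thus the more abundant of the pair in every uninjured library and Ezh2 in every injured one, with log2 ratios of 0.52 ± 0.30 and -0.71 ± 0.29. The Hdac1 to Hdac2 ratio was 1.04, 0.633 and 0.475 and then 0.395, 0.256 and 0.183. Its log2 value was -0.56 ± 0.57 without injury and -1.92 ± 0.56 with it, and uninjured replicate 1 lay farthest from the injured libraries.

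The Chd7 to Chd8 ratio was 0.575, 0.772 and 0.805 in uninjured and 1.49, 1.06 and 1.53 in injured libraries. Chd8, a negative regulator of beta-catenin, was the higher gene before injury and Chd7 the higher after it. For Arid4a to Arid4b the groups were separated by little, with 0.547, 0.679 and 0.655 against 0.811, 0.687 and 0.851, a difference in log2 ratio of 0.32.

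**Figure D3:**
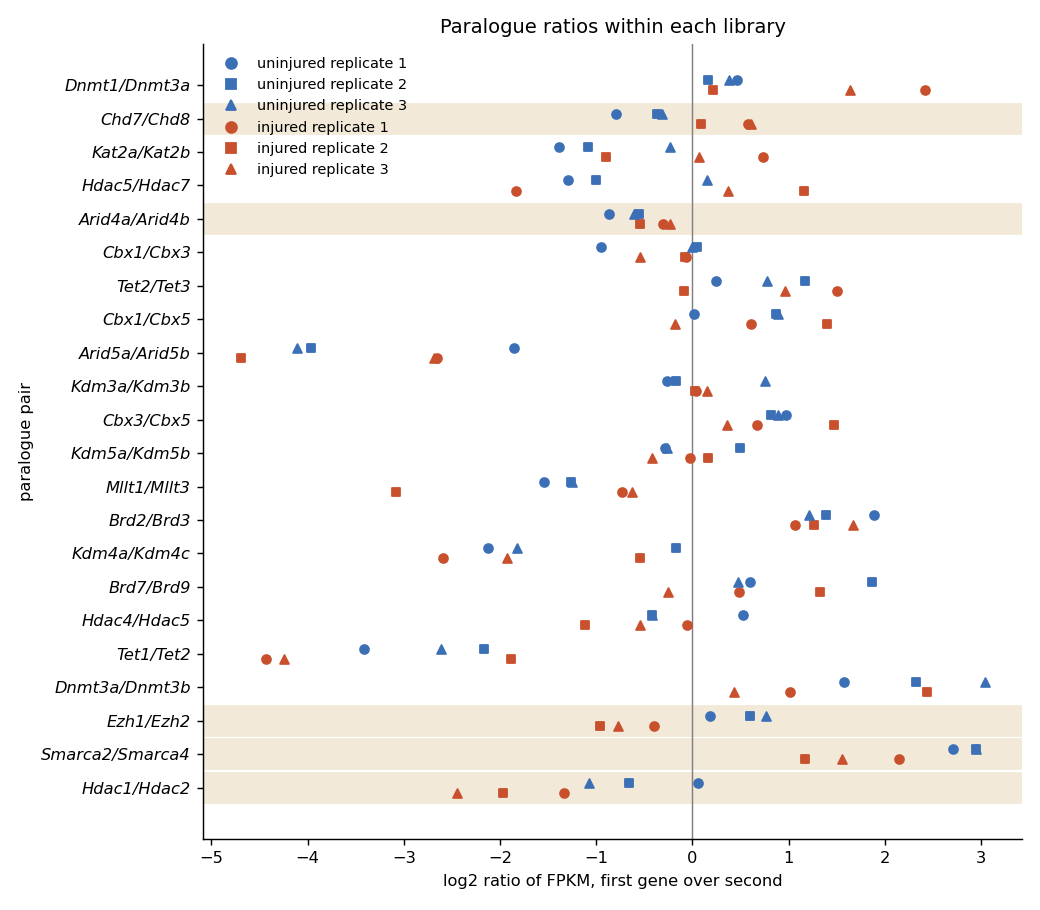
Log2 ratio of the FPKM of the first gene over the second (horizontal axis) in each library, for the paralogue pairs shown; blue is uninjured, red injured, and marker shape gives the replicate. Shaded rows are pairs whose groups do not overlap; Smarca2/Smarca4, Ezh1/Ezh2 and Hdac1/Hdac2 are lower after injury and Chd7/Chd8 and Arid4a/Arid4b higher.

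The members' median SD was 0.48 on the log2 scale among injured and 0.25 among uninjured libraries, near the 0.46 and 0.25 of all genes tested. The members took 0.452% to 0.552% of the summed FPKM without injury, and 0.496%, 0.841% and 0.478% in injured replicates 1 to 3. With the Mir703 entry left out of the sum these shares were 0.605% to 0.741%, and 0.539%, 0.951% and 0.587%, so that injured replicates 1 and 3 then lay below every uninjured library. Relative to the uninjured mean, the member median was -0.11, 0.38 and 0.09 in injured replicates 1 to 3, where that of all genes was 0.14, 0.01 and 0.18. Among the injured libraries replicate 2 was highest for 51 of 85 members (60.0%, against 30.0% of all genes) and replicate 1 lowest for 49 (57.6%, against 29.7%). By family, replicate 2 was the highest injured library for 5 of 5 genes of the Polycomb complex 2 family and 7 of 8 deacetylases. It was highest for 8 of 11 SWI/SNF and ISWI genes, 8 of 12 demethylases and 4 of 6 DNA methylation and oxidation genes. For 3 of 5 Arid3 to Arid5 genes, 6 of 11 methyltransferases and 2 of 4 MLL fusion partners it was highest too. The counts were 3 of 7 for chromobox genes, 3 of 7 for chromodomain helicases, 2 of 6 for bromodomain genes and 0 of 3 for acetyltransferases.

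**Figure D4:**
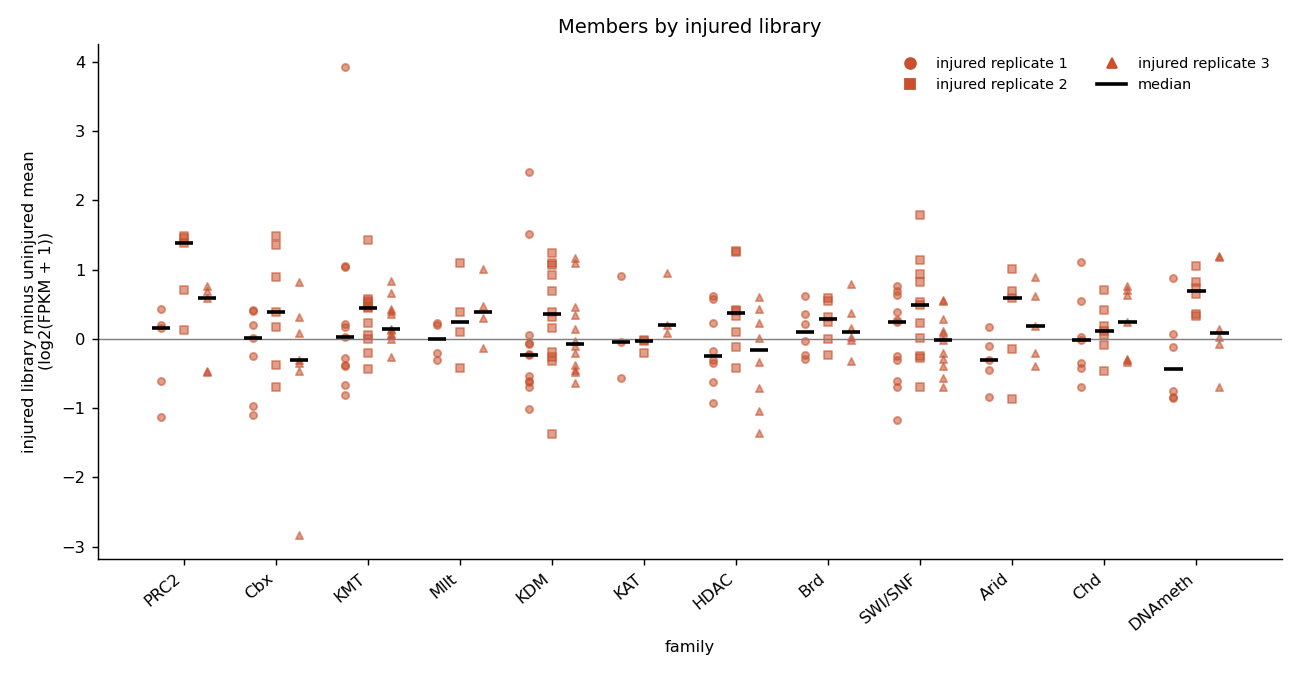
Difference of each injured library from the uninjured mean on the log2(FPKM + 1) scale (vertical axis) for every member, by family; marker shape gives the injured replicate and black bars are medians. In injured replicate 2 the medians reach 1.39 for PRC2 and 0.69 for the DNA methylation enzymes.

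In 13 members (15.3%) injured replicate 2 exceeded every other library by 1.5 times or more, against 8.75% of all genes. They included Eed, Ezh2, Hdac2, Hdac5, Kdm5a, Kdm5b, Dnmt3a, Cbx2, Smarcd2, Smarce1, Arid3b and Mllt3. Smarcd2, a SWI/SNF subunit, was at 28.1 FPKM there and at 5.86 to 9.67 FPKM elsewhere. These genes, chosen after their values were seen, include writers, erasers and readers alike. The same library held the most precursor marker RNA, and markers of mature olfactory neurons (9 of 12 listed, none at the table's lowest value) summed to 397 FPKM there, 151 and 132 FPKM in injured replicates 1 and 3, and 465 to 771 FPKM in uninjured libraries. The part of such cells in the levels of the members was not tested.

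The members are long transcripts. Their longest coding transcript in GENCODE M21 had a median of 4998 bases, against 3164 bases for the 7747 genes with one. Injured replicate 2 differed from the mean of injured replicates 1 and 3 by a median of 0.36 on the log2 scale over members, -0.20 over all genes, -0.06 over the 1938 longest genes and -0.30 over the 1937 shortest. The Spearman correlation of length with this difference was 0.14 over members and 0.12 over all genes. With the change between groups it was -0.33 over members and -0.04 over all genes. The part of length in the members' levels was not tested.

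Other chromatin genes, from 6 lists, were counted in the same way. The lists cover other histone enzymes, Polycomb and deubiquitinase genes, corepressors, COMPASS and acetyltransferase complexes, remodellers, and histone chaperones with a histone gene. Of 154 symbols 113 were listed and tested, and 0 passed (limma, adjusted p of 0.05), while 14 stood higher and 0 lower by unadjusted p. Their median was 0.32, with 91 positive and 22 negative, and the injured libraries lay above every uninjured one for 30 (26.5%, against 12.0% of all genes) and below for 1. The medians in injured replicates 1 to 3 were 0.35, 0.17 and 0.38, so this median was lowest in replicate 2, where the members' median was highest. Without that library 6 of them passed, all higher, while 0 of the 85 members did, against 4.57% of all genes (3.43% higher and 1.14% lower). Whether the lists differ from the members was not tested.

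Among these lists the median was 0.43 for 18 genes of the histone chaperone list, which also holds the histone gene H3f3b. It was 0.33 for 17 Polycomb and deubiquitinase genes and 0.31 for 20 BAF, INO80 and SRCAP subunits. The 17 include the complex 2 genes Rbbp7, Rbbp4, Aebp2 and Mtf2. It was 0.28 for 19 COMPASS and acetyltransferase subunits, 0.25 for 16 corepressor subunits and 0.22 for 23 other writers and erasers. Hat1, which acetylates new histone H4, was at 21.8, 17.2 and 20.3 FPKM in uninjured and 44.6, 29.8 and 51.0 FPKM in injured libraries. Ruvbl2, an ATPase of INO80 and TIP60 complexes, was at 19.8, 19.2 and 20.4 FPKM and at 40.3, 21.6 and 43.0 FPKM. These 2 were the most abundant of their lists, and their groups did not overlap. The groups overlapped for the most abundant gene of each of the other lists, with log2 changes of 0.54 for the methyl-CpG reader Mbd2, 0.41 for the histone binder Rbbp7, 0.24 for the COMPASS subunit Dpy30 and -0.17 for the histone H3.3 gene H3f3b.

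**Figure D5:**
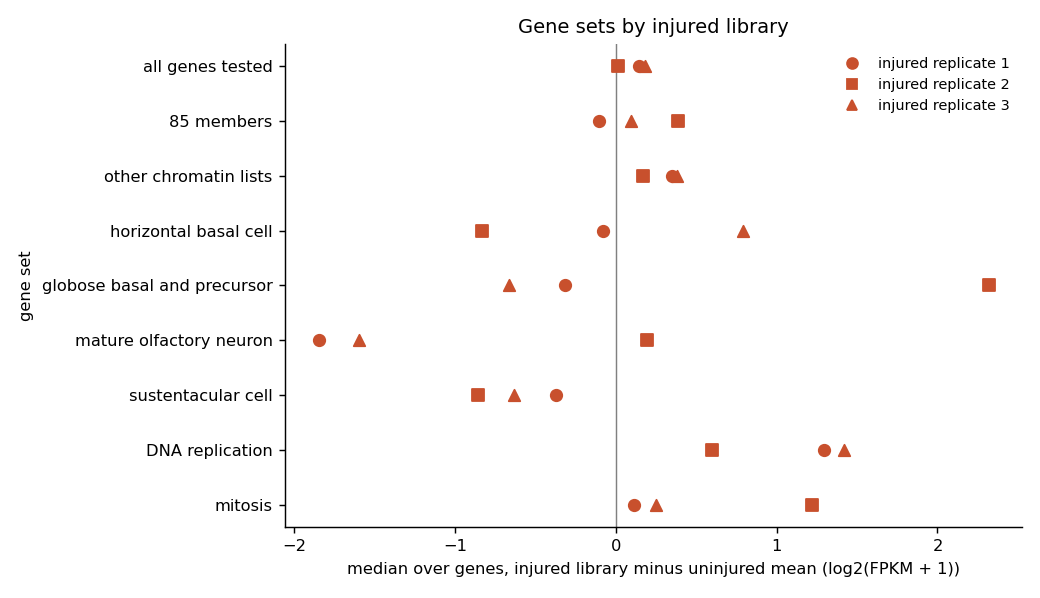
Median over genes of the difference of each injured library from the uninjured mean, log2(FPKM + 1) scale (horizontal axis), for all genes, the 85 members and other gene sets; marker shape gives the injured replicate. The members, the globose basal and precursor markers, the mature olfactory neuron markers and the mitosis genes lie highest in injured replicate 2. All other sets shown, among them all genes and the DNA replication genes, lie lowest there.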

How the data were processed

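RNA of TdTomato-sorted cells was measured in 3 uninjured and 3 injured libraries. The values the authors deposited, 1 per gene and library, are read as FPKM: the submitters' processing notes name Cuffdiff, while the table names no unit. FastQC, TopHat and the build mm9 are named there too, but the sources used here give no versions, no scaling between libraries and no filter behind the 8078 genes. Read depth is unknown: no steps of whole reads were found, as at most 2.38% of ratios of values under 3 FPKM agreed within 1%. The lowest value, 0.001 FPKM, stands in 549 genes, and what it stands for was not given. Summed FPKM ran from 164265 to 231755 per library, of which the Mir703 entry took 8.01% to 25.4%. No 2 libraries were identical.

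With limma 3.58.1 (R 4.3.3), log2(FPKM + 1) was compared between groups for 7987 genes averaging 1 FPKM or more, with a trended, robust eBayes step, Benjamini-Hochberg adjustment and no covariate. The script was tested on simulated data in which 200 of 7987 genes were changed. It recovered 6% of simulated log2 changes of 1 and 74% of those of 2, with 6 false calls, so changes near 1 are mostly missed. Members described library by library were those separated between groups (up to 10 in each direction by size) and the 2 most abundant of each of 12 families; of other chromatin lists at most the 2 most abundant genes were named. Setdb1, Ezh1, Jarid2, Chd8, Smarcd2, Setd7, Kdm2a, Chd9, Cbx7 and the ratios' other genes fall outside this rule and were named after their values were seen. So do the list genes Rbbp4, Aebp2 and Mtf2, named in the same way. Some members and pairs enter the counts but are not reported here by name. The members, lists and pairs were chosen with earlier results of these data known, so no count over them is independent support. Alternatives are in the closing section. Lengths came from GENCODE M21 by symbol, and promoters from RefSeq. Figures were drawn with matplotlib 3.10.9 in Python 3.11.15.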

Additional observations from a re-analysis of the deposited data

How the results depend on the processing

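No member passed an adjusted p of 0.05 in any of the 16 alternatives to the limma fit, where the lowest adjusted p was 0.0548, or at a threshold of 0.01. The count of all genes past 0.05, 1 as reported, was 221 with the replicate block, 134 with limma library weights, 6 without trend and robust steps, 4 with quantile normalization, 3 with upper-quartile scaling and 2 with a pseudocount of 0.1. It ran from 1 to 365 when a library was left out, with 365 without injured replicate 2. Same-numbered libraries had correlations of deviations of -0.09, 0.07 and -0.08, so the numbers were not taken as pairs, and 0 members passed in the replicate block. The number of members whose groups do not overlap, 12 as reported, was 10 with upper-quartile or quantile scaling and 9 with Mir703 left out. It ran from 16 to 33 when a library was left out, and that of paralogue pairs, 6 as reported, from 6 to 12; leaving out a library can only keep or raise these counts. The member median, 0.10 as reported, ran from -0.06 to 0.24. Precision is limited by 3 pools a group and by the unknown depth. The cause of these differences was not tested.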

Other observations

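Several members were carried by a single library. Setd6, a methyltransferase of the NF-kB subunit RelA, was listed at 0.001 FPKM in 5 libraries and at 14.2 FPKM in injured replicate 1. Kdm4b, a demethylase of H3 lysine 9, was at 14.2 FPKM in that library and at 1.22 to 2.22 FPKM in the others. Cbx7, a Polycomb reader, was listed at 0.001 FPKM in injured replicate 3, at 6.18 and 3.39 FPKM in injured replicates 1 and 2 and at 5.55 to 7.07 FPKM without injury. Kdm1b was listed at 0.001 FPKM in uninjured replicate 1 and injured replicate 2 and at 3.05 to 6.43 FPKM in the other libraries. Kdm2b, with a log2 change of 0.79, was listed at 0.001 FPKM in uninjured replicate 1 and at 1.54 to 4.76 FPKM in the other libraries. These genes were chosen after their values were seen.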
